A study of Mus musculus with 12 samples.

Results

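Genes of glucose uptake, glycolysis, the pentose phosphate pathway and lactate handling were followed in lung tissue of B6C3F1 mice, a hybrid strain of long-term rodent bioassays. The set held 40 genes, given by symbol, of 18193 genes measured under a single symbol. A gene was represented by the probe set, a group of short probes on the array, that carried its symbol alone and had the highest mean signal over 12 arrays. By this rule 35 members could be tested. Gpi1, Eno1, Pfkfb1 and G6pdx are unnamed here, because no probe set was listed under their symbol alone. Gapdh was read only on the array's control probe sets and is described apart.

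One group was 6 spontaneous lung tumours and the other 6 normal lungs, with 1 Affymetrix array each. All came from B6C3F1 mice aged 2 years of a National Toxicology Program bioassay, and the labels state no treatment and no genetic change for either group. The normal lungs are whole tissue of many cell types, and the labels do not name the animals behind the 12 samples, so the p-values speak of variation among samples that may in part be technical. In bulk tissue, fewer cells of a type and less RNA per cell cannot be told apart.

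Glycolysis splits glucose into pyruvate through a fixed order of enzymes, and most steps can be run by several isozymes, which are products of different genes with the same activity and different tissue distributions. Lactate dehydrogenase then reduces pyruvate to lactate, which leaves the cell through monocarboxylate transporters, or pyruvate dehydrogenase passes it to the mitochondrion. The pentose phosphate pathway branches off at glucose phosphate and yields NADPH and ribose for nucleotides. Proliferating cells and many tumours are known for a high rate of glycolysis with release of lactate even where oxygen is present.

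Signals below are the deposited intensities on a linear scale. A difference is the tumour mean less the normal mean of log2(signal + 16), written ± its standard error (6 arrays per group), and its adjusted p comes from limma, two-sided, after Benjamini-Hochberg correction across 45037 probe sets with a threshold of 0.05. A gene is said to have risen or fallen only where it passed this threshold. Signals of different genes are not compared, since probe sets differ in their response.

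Several arrays stood apart in markers outside the members. Markers of type II cells, a cell type of alveolar epithelium, summed to 115639 or more on every array, with no other tissue to set beside them. Normal lung 1 had a summed signal of 10 neutrophil markers of 199754, against 3764 to 23888 in the remaining normal lungs and 2562 to 11090.2 in tumours. Normal lungs 2 and 4 had liver marker sums of 25664 and 30162, against 781 to 4695 in the other normal lungs. Tumours 2 and 6 had the 2 highest pan-epithelial sums, 151254 and 121670.0, while the remaining tumours had 40228 to 59323, and the lowest sums of type II cell markers among tumours. The Y-linked Eif2s3y gave 740.5 to 1638 in tumours 1, 2, 3 and 5 and no more than 27.4 on the remaining 8 arrays. Xist, the RNA of the inactive X chromosome, gave 7877 to 12621 on those 8 arrays and no more than 109 in the 4 tumours. All 6 normal lungs and tumours 4 and 6 thus had high Xist and low Eif2s3y, while the other 4 tumours had the reverse. Sex, as read from these transcripts, is therefore in part confounded with the comparison of tumours and normal lungs for every gene. Of the tested members, Pgk1, Pdk3 and Pdha1 are X-linked. Settings without the 4 tumours with Eif2s3y signal keep only tumours 4 and 6 against the 6 normal lungs.

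In tumours 12 of the 35 members rose, 4 fell and 19 did not pass the threshold, so 16 were called beside 29.6% of all genes. The members that rose were the glucose transporter Slc2a1, Hk2, Pfkl, Aldoa, Aldoc, Tpi1, Pgk1, Pgam1, Ldha, the lactate transporter Slc16a1, the kinase Pdk1 and the pentose enzyme Rpia. No tested enolase was among them. Those that fell were Pgam2, Eno3, Pfkfb3 and Pdk4. Of all 18193 genes 12.2% rose and 17.5% fell, while the members gave 34.3% and 11.4%. At a difference of 1 or more in size, 10 members rose and 2 fell, against a background of 4.73% and 10.6%. All 6 tumours lay above all 6 normal lungs for 11 members (6.77% of all genes) and below them for 2 members (11.8%). The median difference was 0.37 over the tested members and -0.08 over all genes. Centring each array on its median, which moves the median difference of all probe sets from -0.06 to 0.13, gave 14 members higher and 2 lower. The count of members lower was also 2 without normal lung 1, tumour 1 or tumour 5 and without normal lungs 2 and 4. It was 2 as well when the 4 tumours with Eif2s3y signal were left out and when Eif2s3y was a covariate. Shares of all genes under these settings and after centring are not given here, so these counts cannot be set against a background.

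**Figure D1:**
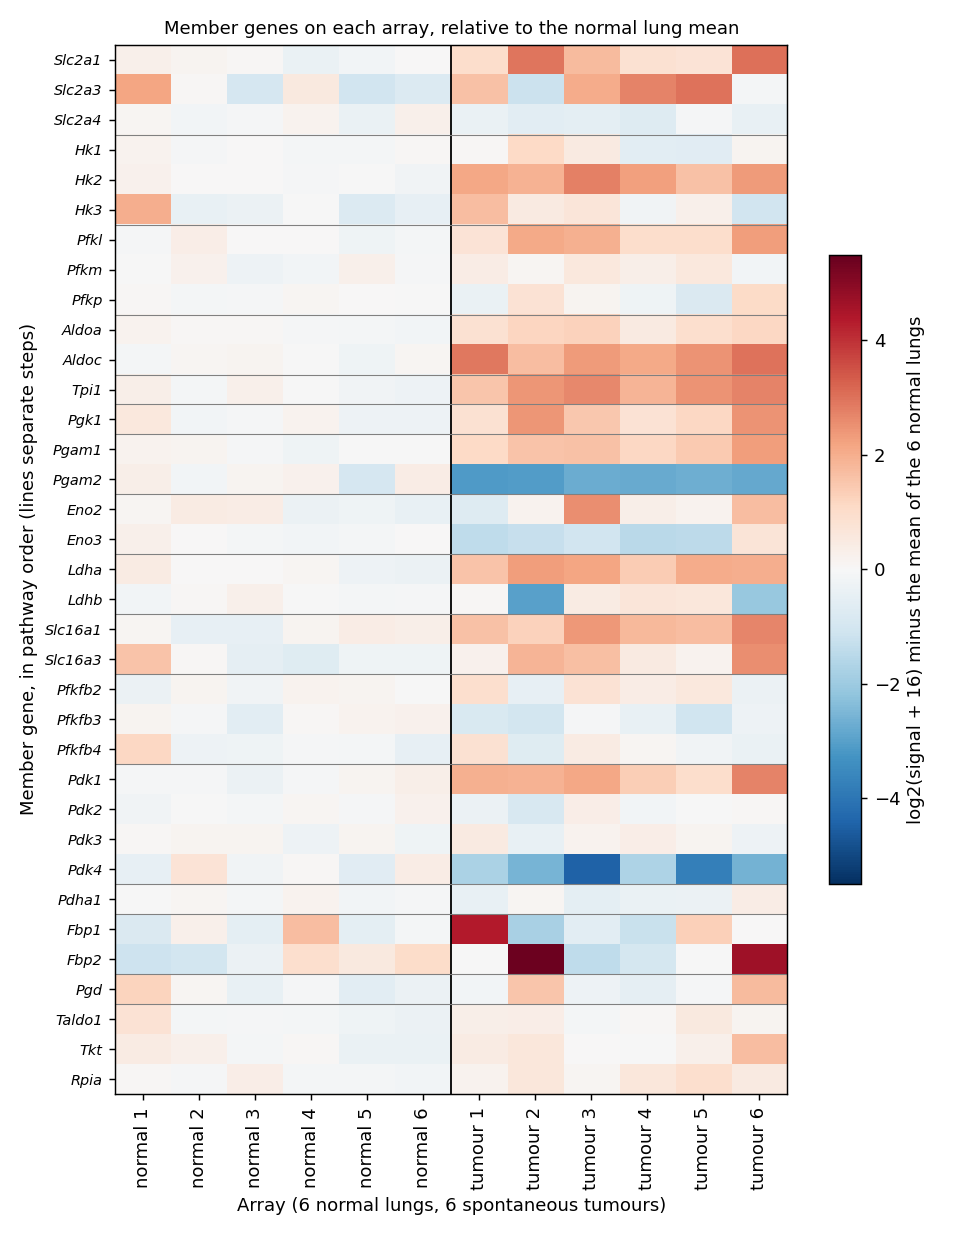
Each row is a tested member in pathway order and each column an array; colour is log2(signal + 16) minus the mean of the 6 normal lungs, and horizontal lines separate the steps. Hk2, Aldoc, Tpi1 and Ldha are higher in all 6 tumours, Pgam2 and Pdk4 are lower in all 6, and Ldhb and Fbp2 stand apart in tumours 2 and 6.

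The promoter letters below are shown because members that rose in tumours come from several chromosomes, some of them sharing one. A further reason is that the hypoxia response motif is known from promoters of glycolytic genes. Promoter sequences from 250 bases before to 50 bases after a gene's start came from RefSeq (build GRCm38.p6) and matched 38 of the 40 members, with 57 promoters. Each was searched on both strands for ACGTG and for GCGTG, the core of the hypoxia response element. The E-box CACGTG bound by Myc and related factors holds ACGTG on both strands, so 1 E-box counts as 2 matches. Of all 32851 promoters of this length 43.77% held ACGTG or GCGTG, against 75.44% of the member promoters. Among genes, 46.73% of all 27025 had at least 1 such promoter, against 86.84% of the 38 members. It was found for 11 of the 12 members that rose, 3 of the 4 that fell and 15 of the 17 not called. The motif therefore occurred in members of every result, and a match of letters is a description, not evidence of a bound site.

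The promoters of Ldha (chr7:46845554-46845853, plus strand), Slc16a1 (chr3:104638414-104638713, plus strand) and Tpi1 (chr6:124814109-124814408, minus strand) are printed 5′ to 3′ with the matches in capitals. They were chosen after their matches were seen. Ldha had the most of the members' promoters, with 7 matches of which 4 came from 2 E-boxes. Slc16a1 had 5, of which 2 came from 1 E-box. Tpi1, with none, was the one gene that rose without a match in this window.
Ldha: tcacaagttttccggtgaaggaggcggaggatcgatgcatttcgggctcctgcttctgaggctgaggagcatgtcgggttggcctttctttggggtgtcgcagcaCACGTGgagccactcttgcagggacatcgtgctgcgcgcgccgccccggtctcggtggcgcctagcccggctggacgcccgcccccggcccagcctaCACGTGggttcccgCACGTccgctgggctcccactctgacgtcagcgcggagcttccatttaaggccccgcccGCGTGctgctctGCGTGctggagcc
Slc16a1: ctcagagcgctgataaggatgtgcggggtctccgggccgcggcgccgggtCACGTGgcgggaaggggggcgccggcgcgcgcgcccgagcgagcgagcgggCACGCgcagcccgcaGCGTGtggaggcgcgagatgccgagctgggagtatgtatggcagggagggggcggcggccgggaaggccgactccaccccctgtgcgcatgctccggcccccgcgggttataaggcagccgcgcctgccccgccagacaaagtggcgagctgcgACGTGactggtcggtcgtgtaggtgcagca
Tpi1: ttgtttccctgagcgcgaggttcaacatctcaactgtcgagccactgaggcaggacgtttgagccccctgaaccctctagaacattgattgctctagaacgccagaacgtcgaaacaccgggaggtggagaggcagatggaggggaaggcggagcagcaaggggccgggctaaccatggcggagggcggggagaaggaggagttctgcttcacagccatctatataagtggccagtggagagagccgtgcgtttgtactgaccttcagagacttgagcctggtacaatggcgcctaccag

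Glucose enters the cell through facilitative transporters. Slc2a1, which encodes the transporter GLUT1 of basal uptake, had signals of 619 to 962 (median 828) in normal lungs. Its tumour signals were 1576, 6269, 2737, 1433, 1338 and 6566 for tumours 1 to 6. On this probe set all tumours were above all normal lungs, with tumours 2 and 6 more than 2-fold above the other 4. The rise was 1.71 ± 0.37 (adjusted p = 0.00306). Without tumours 2 and 6, a setting chosen after seeing the data, it was 1.07 (adjusted p = 0.000624). The dimmer probe sets of Slc2a1 rose by less (1.39 ± 0.47, adjusted p = 0.0427 and 1.18 ± 0.41, adjusted p = 0.0497). On both, the dimmest tumours lay below normal lung 1, at 744 to 826 against 905 and at 645 to 682 against 880.

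Slc2a3 encodes the high-affinity transporter GLUT3 of neurons and white blood cells. Tumours 2 and 6 were the lowest here, at 516 and 1111, and the other tumours ranged from 3758 to 9552. Normal lungs ranged from 576 to 5459, with normal lung 1, the array with high neutrophil markers, the highest; the part of those cells in this signal was not tested. The groups overlapped and the difference did not pass the threshold (1.35 ± 0.70, adjusted p = 0.188). Without tumours 2 and 6 it was 2.35 (adjusted p = 0.00371), and leaving out tumour 2 alone also brought it past the threshold, at 1.86 (adjusted p = 0.0348).

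Slc2a4, the insulin-responsive transporter GLUT4 of muscle and fat, had signals of 159 to 261 (median 213) in normal lungs and 121 to 198 (median 147) in tumours. The groups overlapped, at -0.44 ± 0.18 (adjusted p = 0.0881). A dimmer probe set of the same gene did fall (-2.07 ± 0.40, adjusted p = 0.00129), so the probe sets of this gene differ in their call. Cardiac muscle markers, which mouse lung samples can carry from the pulmonary veins, moved alongside. Of these 13 of 14 fell, beside 17.5% of all genes. Their summed signals were 24016 to 38798 in normal lungs and 746 to 3834 in tumours. Their part in the Slc2a4 signal was not tested.

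Hexokinases trap glucose in the cell as glucose phosphate. Hk2, the inducible isozyme of muscle, fat and many tumours, had signals of 565 to 760.3 (median 649.5) in normal lungs and 2016 to 4475 (median 3013) in tumours. Every tumour was at least 2-fold above every normal lung, and the mean signal was 4.7 times as high (2.17 ± 0.16, adjusted p = 3.42e-07). It had the smallest adjusted p of all tested members.

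The other hexokinases did not pass the threshold. Hk1, the widely expressed isozyme, was at 1389 to 1735 (median 1499.7) in normal lungs and 966 to 3215 (median 1637) in tumours, where tumour 2 was the highest and tumours 4 and 5 lay below all normal lungs (0.09 ± 0.24, adjusted p = 0.839). Hk3, an isozyme of white blood cells, was at 1194 in normal lung 1 and at 161 to 286 in the other normal lungs, and at 131 to 955 (median 377) in tumours (0.31 ± 0.47, adjusted p = 0.691). Its highest normal value thus lay on the array with high neutrophil markers, without which the difference was 0.71 and still did not pass (adjusted p = 0.198).

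Phosphofructokinase commits sugar to glycolysis, and its liver, muscle and platelet subunits are encoded by Pfkl, Pfkm and Pfkp. Pfkl had signals of 1106 to 1690.0 (median 1296) in normal lungs and 2226 to 6608 (median 3899.6) in tumours. No tumour fell within the range of the normal lungs, and the rise was 1.51 ± 0.25 (adjusted p = 0.00041). Tumours 2 and 6 were the highest; without them the rise was 1.17 (adjusted p = 0.000556). A probe set with no mark of shared sequence gave 0.83 (adjusted p = 0.0325).

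Pfkm ranged over 389 to 577 (median 455) in normal lungs and 415 to 713 (median 609) in tumours (0.30 ± 0.16, adjusted p = 0.186). Pfkp ranged over 1259.7 to 1475 (median 1365) in normal lungs, a narrow band, and over 782 to 2852 (median 1344) in tumours (0.11 ± 0.25, adjusted p = 0.815). For Pfkp, 3 tumours lay above that band and 3 below it, the upper ones being tumours 2, 3 and 6.

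Below this step a fructose bisphosphate is split by aldolase. Aldoa, the muscle and general isozyme, was at 8814 to 10946 (median 9621) in normal lungs and 13768 to 23685 (median 19989.8) in tumours. Its groups did not overlap, with a rise of 0.98 ± 0.14 (adjusted p = 0.000115). Of its 5 probe sets 4 rose and 1 did not pass (-0.01 ± 0.15, adjusted p = 0.986).

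Aldoc, the isozyme best known from brain, had signals of 161 to 219 (median 199) in normal lungs and 669 to 1650.1 (median 1093) in tumours. The dimmest tumour was 669, in tumour 2, still 3-fold above the brightest normal lung. The mean was 5.94 times as high in tumours, the largest rise among tested members by difference (2.42 ± 0.20, adjusted p = 6.95e-07), and both of its probe sets rose.

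Tpi1, the isomerase of the triose phosphates, had signals of 2607 to 3944 (median 3057) in normal lungs and 9277 to 21447 (median 17582) in tumours. The lowest tumour, tumour 1, was more than 2-fold above the highest normal lung. The rise was 2.28 ± 0.20 (adjusted p = 1.19e-06), and its 3 probe sets gave 2.26 to 2.61.

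Gapdh oxidises triose phosphate and is a common reference gene. On the array's control probe set near its 3′ end normal lungs had a mean signal of 9519 ± 2637 and tumours one of 23836 ± 3745 (SD, n = 6 per group). All 6 tumours were above all 6 normal lungs there and on the middle and 5′ control probe sets. The differences were 1.35 at the 3′ end, 1.56 in the middle and 1.41 at the 5′ end, each with an exact two-sided permutation p of 0.00216, the smallest that 6 against 6 arrays can give and the same after adjustment over the 3 probe sets. The 3′ to 5′ ratio of Gapdh was 0.687 to 0.845 in normal lungs and 0.718 to 0.766 in tumours (exact permutation p = 0.186).

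Pgk1 makes the first ATP of the pathway and is X-linked. Its tumour signals were 7098, 21532, 11057, 6899, 8747 and 22165 for tumours 1 to 6, and normal lungs ranged over 3208 to 5949 (median 3665). All tumours were above all normal lungs, and tumours 2 and 6, of which only tumour 2 carried Eif2s3y signal, were the highest by a wide gap. The rise was 1.54 ± 0.29 (adjusted p = 0.00117) with all arrays and 1.07 without tumours 2 and 6 (adjusted p = 0.00057). Adding Eif2s3y to the model as a covariate gave 1.63 (adjusted p = 0.013).

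Phosphoglycerate mutase moves the phosphate within its substrate, and here the isozymes went apart. Pgam1, the brain and general form, was at 1480.3 to 2007 (median 1722) in normal lungs and 3707 to 8738 (median 4994) in tumours, with tumour 6 the highest and no overlap. It rose (1.53 ± 0.18, adjusted p = 1.74e-05). Pgam2, the muscle form, was at 125 to 336 (median 292) in normal lungs and 15.3 to 25.2 (median 22.7) in tumours. It fell in every tumour, to signals near the offset of 16, with a difference of -2.86 ± 0.25 (adjusted p = 1.26e-06). At such low tumour signals the size depends on the offset, and it was -3.54 with an offset of 1 and -1.91 with an offset of 64. The cardiac muscle sums given for Slc2a4 moved with it. Of 12 skeletal muscle markers 2 fell, Ckm (-3.07 ± 0.28, adjusted p = 1.88e-06) and Atp2a1 (-1.49 ± 0.36, adjusted p = 0.00642), beside 17.5% of all genes. Tnni2 was the 1 that rose (1.49 ± 0.36, adjusted p = 0.00654), beside 12.2% of all genes. The other 9 did not pass, and the sums were 838 to 1588 in normal lungs and 412 to 899.7 in tumours. The part of muscle in the change was not tested.

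Enolase makes phosphoenolpyruvate. Eno2, the neuronal form, was at 37.9 to 83.5 (median 54) in normal lungs. In tumours it was at 404 in tumour 3 and 222 in tumour 6, and at 28.3 to 75.8 in the other 4, which overlap the normal lungs (0.71 ± 0.46, adjusted p = 0.298). Tumour 6 also had the highest sum of the 8 neuroendocrine markers, 2195 against 228 to 322 in the other tumours, most of it from the adhesion gene Ncam1 at 1931, a gene named after its value was seen; its part in the Eno2 signal was not tested.

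Eno3, the muscle form, was at 645 to 874 (median 691) in normal lungs. Tumour 6 was the highest of all arrays at 1152, and the other tumours were all below the normal lungs, at 242 to 336. The difference with all arrays was -0.99 ± 0.30 (adjusted p = 0.0263). The call was lost without normal lung 1 (-0.93, adjusted p = 0.0562), tumour 1 (-0.91, adjusted p = 0.0549), tumour 4 (-0.89, adjusted p = 0.0583) or tumour 5 (-0.90, adjusted p = 0.0583). It was also lost after median centring (-0.80, adjusted p = 0.0718) and without normal lungs 2 and 4 (-1.02, adjusted p = 0.0794). Without the 4 tumours with Eif2s3y signal the difference was smaller (-0.40, adjusted p = 0.585). That setting keeps only tumours 4 and 6, and tumour 6 was the array with the highest Eno3 signal. With Eif2s3y as a covariate the difference was also smaller (-0.53, adjusted p = 0.404). Without tumours 2 and 6 it was larger (-1.35, adjusted p = 6.93e-06). The cardiac muscle sums given for Slc2a4 were lower in tumours as well, and their part in the Eno3 signal was not tested.

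**Figure D2:**
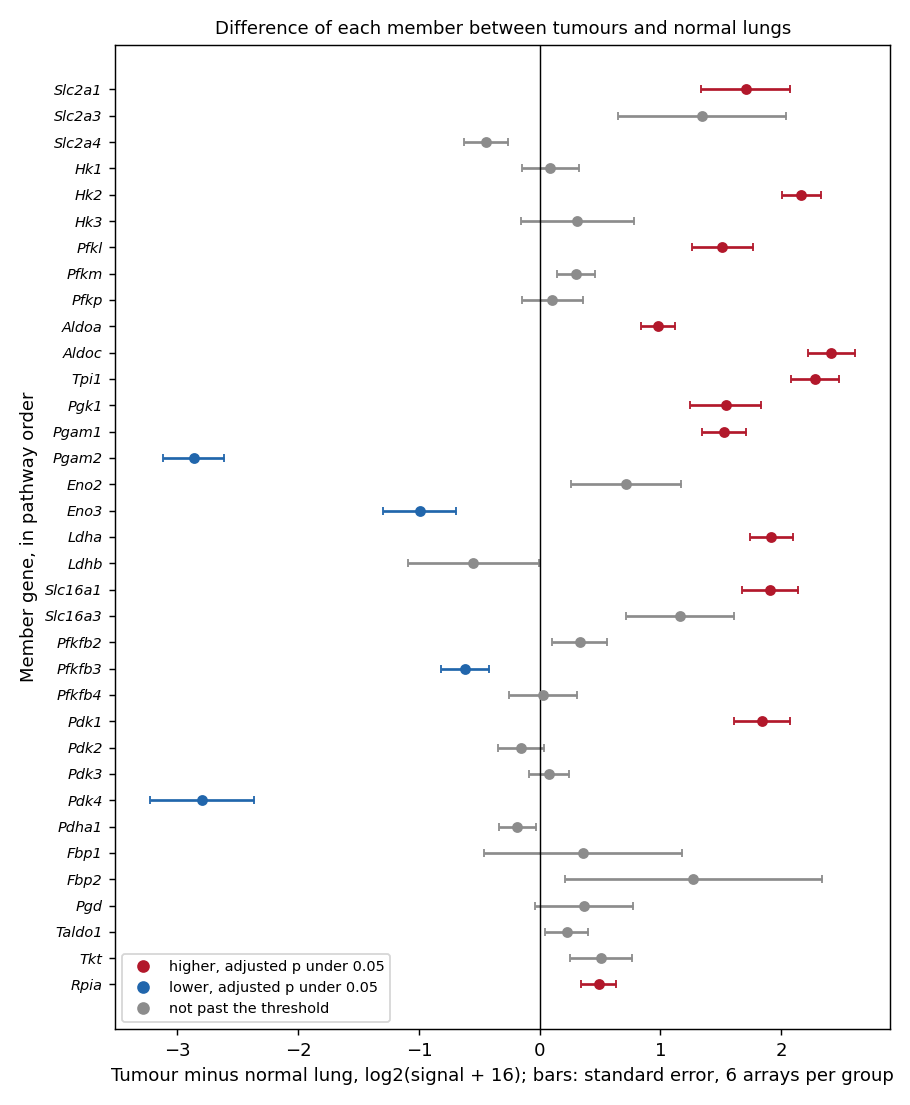
Points give the tumour minus normal lung difference of each tested member on the log2(signal + 16) scale and bars its standard error, with 6 arrays per group; colours mark the limma call. The 12 red points run from Rpia at 0.49 to Aldoc at 2.42, the 4 blue points include Pgam2 and Pdk4 below -2, and Fbp1 and Fbp2 have the widest bars.

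Lactate dehydrogenase is a tetramer of subunits from Ldha, which predominates in muscle and many tumours, and Ldhb, which predominates in heart. Ldha had signals of 3782 to 6542 (median 4844) in normal lungs and 12628 to 23727 (median 19441) in tumours. The dimmest tumour, tumour 4, lay well above the brightest normal lung. The rise was 1.92 ± 0.18 (adjusted p = 2.13e-06), with a mean 3.81 times as high.

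Ldhb divided the tumours. It was at 503 in tumour 2 and 956 in tumour 6, at 4377 to 6598 in the other 4 tumours and at 3707 to 5094 (median 4011) in normal lungs. Tumours 2 and 6 were thus far below every normal lung, while 3 of the other 4 lay above all of them. Its 4 probe sets showed the same 2 low tumours. The difference over all arrays did not pass the threshold (-0.55 ± 0.54, adjusted p = 0.524), and without tumours 2 and 6 it had the other sign, 0.45 (adjusted p = 0.0222).

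Lactate leaves and enters cells through Slc16a1, the transporter MCT1 of many tissues, and Slc16a3, the transporter MCT4 of cells that export lactate. Slc16a1 had signals of 557 to 1026 (median 839) in normal lungs and 1899 to 5081 (median 2616) in tumours, without overlap. It rose (1.91 ± 0.23, adjusted p = 2.57e-05); a much dimmer second probe set did not pass the threshold (0.17 ± 0.35, adjusted p = 0.786), and the mean of both gave 1.04.

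Slc16a3 was at 508 in normal lung 1 and 96.8 to 168 in the other normal lungs. Tumours ranged over 185 to 1007 (median 385), with tumours 6 and 2 the highest, and 3 tumours were above all normal lungs. The difference did not pass the threshold (1.16 ± 0.45, adjusted p = 0.0747). It passed without normal lung 1 (1.47, adjusted p = 0.016), tumour 1 (1.35, adjusted p = 0.0464) or tumour 5 (1.35, adjusted p = 0.0466). With all arrays it also passed after median centring (1.35, adjusted p = 0.039) and after quantile normalization (1.27, adjusted p = 0.0498). Without tumours 2 and 6 it was 0.64.

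**Figure D3:**
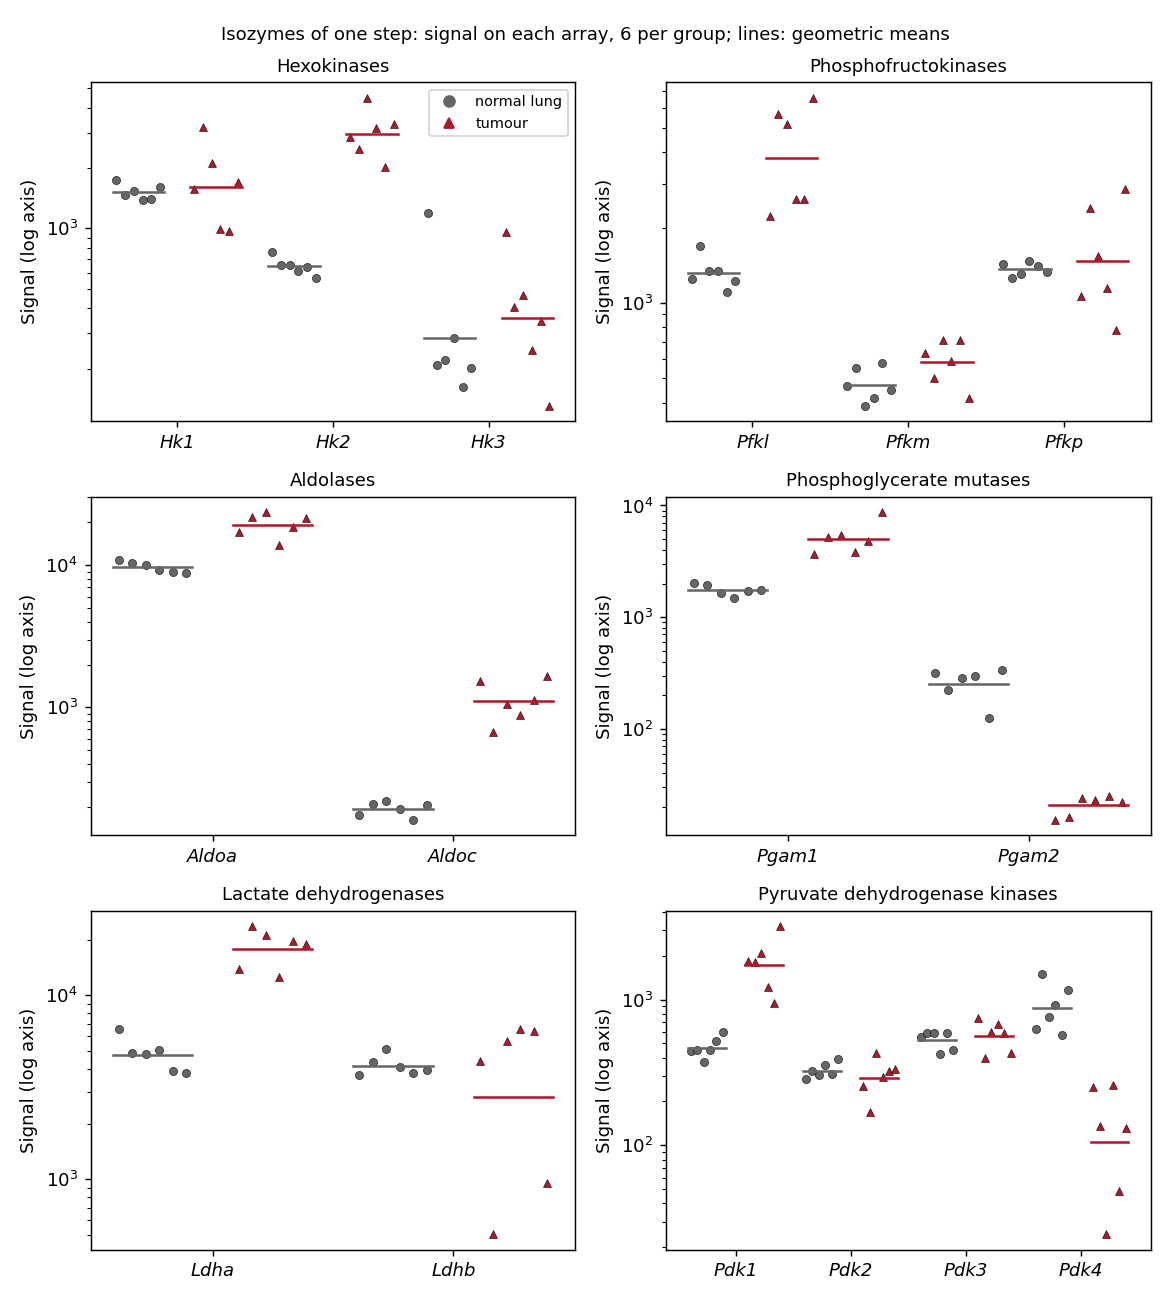
Each panel gives the signal (log axis) of the isozymes of 1 step on each array, with normal lungs as circles, tumours as triangles and lines at the geometric means of 6 arrays. Within each family 1 or 2 isozymes separate the groups upward (Hk2, Pfkl, Aldoa and Aldoc, Pgam1, Ldha, Pdk1), while Pgam2 and Pdk4 separate them downward.

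The Pfkfb enzymes make and degrade the fructose bisphosphate that activates phosphofructokinase. Pfkfb2, the heart form, was at 399.8 ± 60.1 in normal lungs and 536 ± 197 in tumours (mean ± SD; 0.33 ± 0.23, adjusted p = 0.342), with tumours 2 and 6 lowest; without them it passed, at 0.69 (adjusted p = 0.00361). Of its 4 probe sets 1 dimmer one rose over all arrays (0.75 ± 0.21, adjusted p = 0.0181). Pfkfb4 was at 1124 ± 593 and 1122 ± 444 (0.03 ± 0.28, adjusted p = 0.962), and normal lung 1 had its highest signal, 2323.

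Pfkfb3, the inducible form with high kinase activity, fell from 783 ± 148 to 515 ± 157 (mean ± SD), a difference of -0.62 ± 0.20 (adjusted p = 0.0353) with overlapping groups. Its second probe set did not pass the threshold (-0.48 ± 0.21, adjusted p = 0.108). This was the least stable call among the members: it was lost on leaving out normal lung 1, 2, 4, 5 or 6 or tumour 1, 2 or 5, with differences of -0.63 to -0.52 and adjusted p up to 0.077, and without normal lungs 2 and 4 (-0.61, adjusted p = 0.109). The difference was smaller, and also not called, after median centring (-0.43, adjusted p = 0.121) and with Eif2s3y as a covariate (-0.39, adjusted p = 0.373). The same held without the 4 tumours with Eif2s3y signal (-0.34, adjusted p = 0.331). With all arrays the call was lost after quantile normalization (-0.54, adjusted p = 0.0508) and without the limma trend (-0.62, adjusted p = 0.0573). It was lost too with the replicate number as a block (-0.62, adjusted p = 0.0738).

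Pyruvate dehydrogenase kinases inhibit the enzyme complex that feeds pyruvate to the mitochondrion. Pdk1, a target of hypoxia signalling, had signals of 376 to 598 (median 450.3) in normal lungs and 944 to 3179.6 (median 1829) in tumours. Its groups did not overlap, and all 4 of its probe sets rose, the brightest by 1.84 ± 0.23 (adjusted p = 3.63e-05) and their mean by 1.22. Pdk4, the form induced by fasting, had signals of 568 to 1493 (median 837) in normal lungs. In tumours it was at 252, 136, 24.6, 260.3, 48.7 and 131 for tumours 1 to 6. All were below all normal lungs, with tumours 3 and 5 the lowest (-2.80 ± 0.43, adjusted p = 0.000193). The cardiac muscle sums moved with it, and so did 3 of 5 adipocyte markers, which fell, beside 17.5% of all genes. The adipocyte sums were 1172 to 2542 in normal lungs and 402 to 671 in tumours. The part of cardiac muscle and adipocytes in the fall of Pdk4 was not tested.

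The remaining kinases and their target did not pass the threshold. Pdk2 was at 285 to 391 (median 315) in normal lungs and 169 to 429 (median 310.4) in tumours (-0.15 ± 0.19, adjusted p = 0.626), and Pdk3 at 426 to 591 (median 571) and 399 to 749.5 (median 594) (0.08 ± 0.17, adjusted p = 0.787). Pdha1, the catalytic subunit of pyruvate dehydrogenase, was at 3821 ± 356 in normal lungs and 3442 ± 925 in tumours (mean ± SD; -0.18 ± 0.15, adjusted p = 0.433), with tumours 2 and 6 the highest.

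Fructose bisphosphatases run the opposite reaction to phosphofructokinase in gluconeogenesis, Fbp1 in liver and kidney and Fbp2 in muscle. Neither passed the threshold, and both were high in few tumours. Fbp1 was at 3787 in tumour 1 and 38.4 to 451 in the others, against 91.9 to 584 in normal lungs (0.36 ± 0.82, adjusted p = 0.805). Its highest normal values were those of normal lungs 4 and 2, the arrays with liver markers, without which the difference was 0.85 and did not pass (adjusted p = 0.601). Fbp2 was at 2489 in tumour 2 and 1512 in tumour 6, and no other array exceeded 104 (1.27 ± 1.06, adjusted p = 0.441). The genes are neighbours on chromosome 13 with no protein-coding gene between them, yet no tumour was high for both. Without tumour 1 the difference of Fbp1 was -0.44, and without tumours 2 and 6 that of Fbp2 was -0.61.

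In the pentose phosphate pathway 1 of the 4 tested members rose. Rpia, which makes ribose phosphate, was at 862 to 1244 (median 895) in normal lungs and 1042 to 1797 (median 1398) in tumours, with overlap (0.49 ± 0.15, adjusted p = 0.0231). This call was lost without normal lung 4 (0.47, adjusted p = 0.0501), normal lung 5 (0.47, adjusted p = 0.0505) or normal lung 6 (0.46, adjusted p = 0.052). It was also lost without normal lungs 2 and 4 (0.44, adjusted p = 0.108) and with Eif2s3y as a covariate (0.57, adjusted p = 0.069). With the replicate number as a block it was lost as well (0.49, adjusted p = 0.0701).

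Pgd, the second NADPH-producing enzyme of the pathway, was at 8585 and 9914 in tumours 2 and 6 and 2077 to 2813 in the other tumours. In normal lung 1 it was at 7064, and in the other normal lungs at 1999 to 3219 (0.37 ± 0.41, adjusted p = 0.572). Tkt, transketolase, was at 7081 ± 1672 and 10812 ± 5886 (mean ± SD; 0.51 ± 0.26, adjusted p = 0.174), with tumour 6 the highest at 22452. Taldo1, transaldolase, was at 3109 ± 1044 and 3539 ± 567 (0.22 ± 0.18, adjusted p = 0.409); without normal lung 1, at 5204 the highest array, it passed at 0.38 (adjusted p = 0.0472).

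Whether isozymes of a step differed in their change was tested within arrays. For each of 24 pairs the log2 difference between both members was taken on each array and compared between groups by an exact two-sided permutation test, with Benjamini-Hochberg adjustment over the 24 pairs. Of these, 15 passed the threshold, and for 13 the 6 tumours and 6 normal lungs did not overlap. Those 13 share the smallest p the design allows, 0.00216 (adjusted p = 0.004).

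The widest gaps were Pdk1 against Pdk4, at 4.63 ± 0.55, and Pgam1 against Pgam2, at 4.39 ± 0.28, both pairs in which one isozyme rose and the other fell. Their order depends on the offset: they were 4.89 and 5.08 with an offset of 1, and 4.09 and 3.41 with one of 64. Pdk2 and Pdk3 also differed from Pdk4, by 2.64 ± 0.60 and 2.87 ± 0.52, and from Pdk1, which exceeded them by 1.99 ± 0.30 and 1.76 ± 0.37. Ldha exceeded Ldhb by 2.46 ± 0.75, and the value without tumours 2 and 6 was 1.34 (exact permutation, adjusted p = 0.0152). The change of Hk1 was below that of Hk2, at -2.08 ± 0.28, and Hk2 exceeded Hk3 by 1.85 ± 0.56 (exact permutation, adjusted p = 0.0111). Slc2a1 exceeded Slc2a4 by 2.15 ± 0.48, and Eno2 exceeded Eno3 by 1.71 ± 0.44.

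Among phosphofructokinase subunits Pfkl exceeded Pfkm by 1.21 ± 0.39 and Pfkp by 1.41 ± 0.16. Without tumours 2 and 6 the Pfkl and Pfkm pair was at 0.69 (exact permutation, adjusted p = 0.0152). Aldoc rose more than Aldoa, the pair value being -1.44 ± 0.24. With probe sets preferred whose names mark no shared sequence, Pfkl against Pfkm, Pfkl against Pfkp and Aldoa against Aldoc were at 0.53, 0.73 and -0.72 and did not pass (exact permutation, adjusted p of 0.112 to 0.208). Pfkfb2 exceeded Pfkfb3 by 0.95 ± 0.31 (exact permutation, adjusted p = 0.0173).

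The other 9 pairs did not pass, which does not show that the isozymes act alike. They were Slc2a1 against Slc2a3 (0.36 ± 1.19), Slc2a3 against Slc2a4 (1.79 ± 0.81), Hk1 against Hk3 (-0.23 ± 0.56), Pfkm against Pfkp (0.20 ± 0.41) and Slc16a1 against Slc16a3 (0.75 ± 0.49). The rest were Pfkfb2 and Pfkfb3 against Pfkfb4 (0.31 ± 0.32 and -0.64 ± 0.34), Pdk2 against Pdk3 (-0.23 ± 0.23) and Fbp1 against Fbp2 (-0.91 ± 1.77). Their exact permutation adjusted p-values ran from 0.0747 to 0.745. Without normal lung 1, Slc2a3 against Slc2a4 (2.20) and Pfkfb3 against Pfkfb4 (-0.85) passed, and without tumour 2 so did Slc2a3 against Slc2a4 (2.28) and Slc16a1 against Slc16a3 (1.02).

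Spread within the groups was compared gene by gene. The SD of log2 values was larger in tumours for 30 of 35 members, as it was for 69.4% of all genes, and the median ratio of the SDs was 2.23 for members and 1.41 for all genes. Tumour 6 had the highest tumour signal for 8 of the 12 members that rose, and tumours 1, 4 and 5 had the lowest for 3 each. The share of all genes with this order is not given here, so it cannot be called particular to the members. Tumours 2 and 6 were the 2 highest tumours for 9 members, Slc2a1, Pfkl, Pfkp, Pgk1, Slc16a3, Pdha1, Fbp2, Pgd and Tkt, or 25.7% against 12.9% of all genes. They were the 2 lowest for 6 members, Slc2a3, Pfkm, Ldhb, Pfkfb2, Pfkfb4 and Pdk3, or 17.1% against 15.0%. Without both, 16 members rose and 5 fell; the 4 added upward were Slc2a3, Pfkm (0.47, adjusted p = 0.0205), Ldhb and Pfkfb2, and the 1 added downward was Pdha1 (-0.41, adjusted p = 0.00784). The shares of all genes that rose and fell without tumours 2 and 6 are not given here. Among normal lungs, the highest signal was that of normal lung 1 for 16 of 35 members, 45.7% against 17.4% of all genes.

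**Figure D4:**
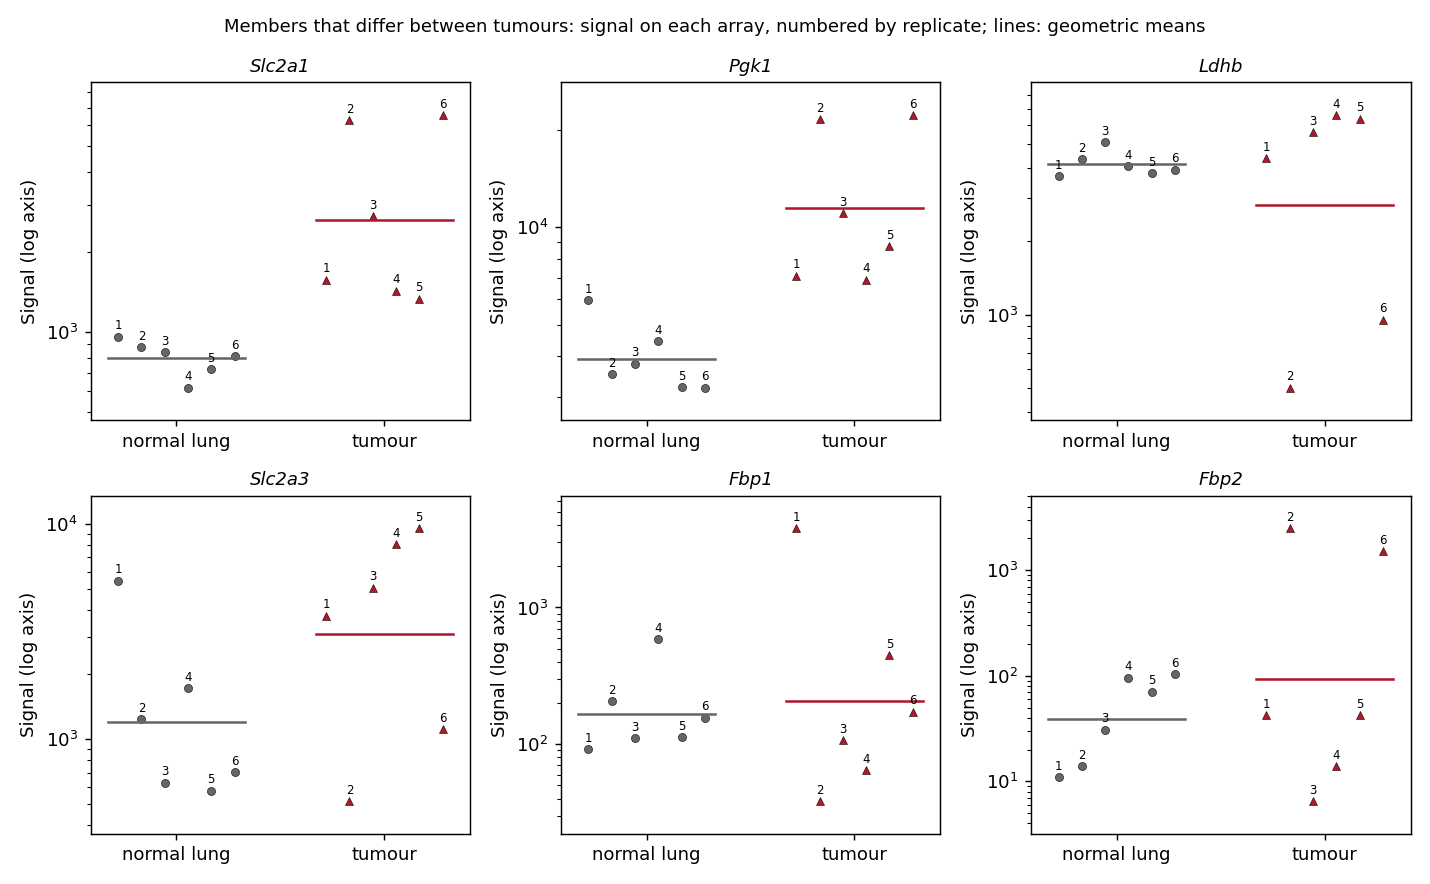
Signals (log axis) of 6 members on each array are shown, numbered by replicate, with normal lungs as circles, tumours as triangles and lines at the geometric means of 6 arrays. Tumours 2 and 6 are the highest tumours for Slc2a1, Pgk1 and Fbp2 and the lowest for Ldhb and Slc2a3, and tumour 1 stands alone for Fbp1.

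Around these members, 49 other genes of the pathway were tested. Of these 8 rose and 8 fell, beside 12.2% and 17.5% of all genes, and their median difference was -0.16. Centring each array on its median gave 12 and 4, and leaving out normal lung 2 or 5 or tumour 1, 3 or 5 in turn gave 5 lower. The shares of all genes under these settings are not given here.

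Bsg, the chaperone of the lactate transporters, rose, with signals of 8613 to 9927 in normal lungs and 14906 to 21518 in tumours (0.95 ± 0.12, adjusted p = 2.79e-05). Pgm1, which links glycogen to glucose phosphate, rose (1.13 ± 0.16, adjusted p = 0.000122), and so did Pck2, the mitochondrial enzyme that makes phosphoenolpyruvate (0.91 ± 0.18, adjusted p = 0.00181). In the pentose pathway Pgls, the lactonase, rose (0.68 ± 0.15, adjusted p = 0.00324) and Rpe, the epimerase, rose (0.68 ± 0.16, adjusted p = 0.00602). Without the 4 tumours with Eif2s3y signal Pgls was not called (0.42, adjusted p = 0.077). Nor was Pgls called with Eif2s3y as a covariate (0.47, adjusted p = 0.108). Pkm, the pyruvate kinase of most tissues, was at 16387 and 14569 in tumours 2 and 6, and ranged over 4545 to 8259 in the remaining tumours and over 2759 to 5708 in normal lungs. It rose (1.18 ± 0.32, adjusted p = 0.0132), by less without tumours 2 and 6 (0.68, adjusted p = 0.0275). Its call was lost without normal lungs 2 and 4 (1.17, adjusted p = 0.0568) and with Eif2s3y as a covariate (1.31, adjusted p = 0.0572). The array does not tell its splice forms apart in this table.

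On the other side, Pgm2l1, a phosphoglucomutase-like enzyme, fell (-1.49 ± 0.21, adjusted p = 8.01e-05), and so did Slc2a12, a glucose transporter (-2.61 ± 0.42, adjusted p = 0.000328). H6pd, the glucose phosphate dehydrogenase of the endoplasmic reticulum, fell (-0.72 ± 0.15, adjusted p = 0.00185), as did Gpd1l, a relative of glycerol phosphate dehydrogenase (-0.58 ± 0.12, adjusted p = 0.00265). Txnip, which restrains glucose uptake, fell (-0.45 ± 0.13, adjusted p = 0.0179). Bpgm, which makes the bisphosphoglycerate of red cells, fell (-0.64 ± 0.20, adjusted p = 0.0297). Of 4 erythroid markers 2 fell, beside 17.5% of all genes, with sums of 1897 to 7752 in normal lungs and 137 to 1399 in tumours. The part of red cells in the Bpgm signal was not tested. With Eif2s3y as a covariate the calls of H6pd (-0.40, adjusted p = 0.0935) and Gpd1l (-0.46, adjusted p = 0.0721) were lost. So were those of Txnip (-0.35, adjusted p = 0.211) and Bpgm (-0.35, adjusted p = 0.412). Without the 4 tumours with Eif2s3y signal the calls of H6pd (-0.38, adjusted p = 0.152), Gpd1l (-0.39, adjusted p = 0.104), Txnip (-0.34, adjusted p = 0.19) and Bpgm (-0.30, adjusted p = 0.539) were lost. Those of Txnip and Bpgm were also lost without normal lungs 2 and 4 (-0.38, adjusted p = 0.107 and -0.63, adjusted p = 0.0533), and that of Bpgm without tumours 2 and 6 (-0.61, adjusted p = 0.0645). Mpc1, a subunit of the mitochondrial pyruvate carrier, was at 0.12 ± 0.19 (adjusted p = 0.705) and Pklr, the liver and red cell pyruvate kinase, at -0.54 ± 0.36 (adjusted p = 0.327).

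Of 18 tested regulators of the pathway 6 rose and 5 fell (beside 12.2% and 17.5% of all genes), Trp53 being unnamed here. The following were chosen after their values were seen. Hif1a, the oxygen-regulated factor that activates many glycolytic genes, rose, with signals of 2683 to 3612 in normal lungs and 6427 to 10263 in tumours (1.34 ± 0.13, adjusted p = 3.51e-06). Its relative Epas1, abundant in endothelium, fell, with signals of 27094 to 38095 and 6612 to 15401 (-1.68 ± 0.20, adjusted p = 2.13e-05), beside 12 of 12 endothelial markers that fell, with sums of 64964 to 88394 in normal lungs and 5801 to 15149 in tumours. Myc rose (2.16 ± 0.44, adjusted p = 0.00188) and was highest in tumours 2 and 6, at 2031 and 2438, against 434 to 577 in the other tumours. Without those arrays its difference was 1.46 (adjusted p = 0.00155). Mycn rose (2.35 ± 0.42, adjusted p = 0.000702) and was highest in tumour 5, at 2226.

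Markers of growth and of other cells were read on the same arrays. The counts that follow stand beside 12.2% of all genes that rose and 17.5% that fell. Of 17 cell cycle genes 13 rose, with sums of 8588 to 11027 in normal lungs and 12278 to 28494 in tumours. Of 8 pan-epithelial markers 6 rose, among them Epcam (2.30 ± 0.18, adjusted p = 5.02e-07), with sums of 23491 to 27019 in normal lungs and 40228 to 151254 in tumours. Of 11 type II cell markers 5 rose, among them Muc1 (1.36 ± 0.20, adjusted p = 0.000131), with sums of 124540.0 to 170321 in normal lungs and 115639 to 265547 in tumours. Of 13 alveolar macrophage markers 7 rose and 1 fell, with sums of 19453 to 29326 in normal lungs and 22624 to 102816 in tumours and tumour 1 the highest. Of 12 liver markers 5 fell and of 8 neuroendocrine markers 2 fell, while the smallest adjusted p among neutrophil markers was that of Csf3r (-1.68 ± 0.65, adjusted p = 0.0739). No marker of any list was at 0 on every array, which does not show that a marker was expressed. The part of these cells in the results was not tested.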

How the data were processed

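RNA from 6 spontaneous lung tumours and 6 normal lungs was labelled in one cycle and hybridised, 1 array per sample, per the labels. Sample titles gave the group and replicate number. The authors deposited linear signal intensity for each probe set, computed with MAS5 per the submitters' processing notes, with a version not given in the sources used here. The 2% trimmed mean was 500 on every array, so this scaling was kept. Median signals were 152 to 165 in normal lungs and 127 to 150.2 in tumours. Precision is limited by the number of arrays, and the offset shrinks differences of dim probe sets.

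Of 45101 probe sets, 64 array controls were left out. The platform annotation gave the symbols, and the tested members had 73 probe sets. Values were taken as log2(signal + 16) and modelled in R 4.3.3 with limma 3.58.1 (lmFit, then eBayes with trend, no covariate). Isozyme pairs and the Gapdh controls were tested by exact permutation in Python 3.11.15 with numpy 2.4.6, pandas 2.3.3 and scipy 1.17.1, and figures were drawn with matplotlib 3.10.9. The limma step was tested on simulated data. Members, gene lists and tests were chosen with earlier results of these data known.

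Lowest, median and highest signals are given for members with a called difference of at least 1 and their families, and mean and SD or range for others. Other pathway genes were named for up to 6 of the smallest adjusted p per direction, with 8 fixed genes, and up to 3 per marker list; regulators were picked by their values. Other settings covered the offset (1 and 64), the scaling (quantile, median), dim probe sets left out, the limma trend and weights, the replicate block, Eif2s3y as a covariate, the probe set that stands for a gene and the arrays included. The setting without tumours 2 and 6, and every setting that leaves out arrays or adds Eif2s3y for single genes outside the members, was added after seeing the data.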

Additional observations from a re-analysis of the deposited data

Results flagged for a closer look

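Among the 35 tested members in both groups, 70 sets of 6 arrays were examined for an array far from the rest, measured as the gap to its nearest neighbour divided by the whole range, both on the log2(signal + 16) scale. The value exceeded Dixon's 95% limit for 6 arrays in 8 sets, and chance alone exceeds it in about 1 in 20.

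Normal lung 1 accounted for 5 of them. It lay above the other normal lungs for Hk3 (0.724; 1194 against 161 to 286), Eno3 (0.657; 874 against 645 to 716), Slc16a3 (0.68; 508 against 96.8 to 168), Pfkfb4 (0.757; 2323 against 756 to 994) and Taldo1 (0.754; 5204 against 2393 to 2898). This array also had the high neutrophil marker sum given above, and the part of those cells was not tested.

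Normal lung 3 was the lowest normal lung for Pfkfb3 (0.63; 507 against 733 to 908) and the highest for Rpia (0.63; 1244 against 862 to 988). Tumour 6 was the highest tumour for Eno3 (0.793; 1152 against 242 to 336).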

How the results depend on the processing

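Of the members called, 11 of the 12 that rose (all but Rpia) and Pgam2 and Pdk4 kept direction and call under each alternative run for them, at most 27, and 12 of the 15 isozyme pairs did under 20. Eno3, Pfkfb3 and Rpia kept their call under 19, 12 and 21 of 27. The 3 Gapdh control probe sets kept theirs under 18. The number of members higher ranged from 11 to 14 on leaving out 1 array and was 16 without tumours 2 and 6. The number lower ranged from 2 to 4 on leaving out 1 array, and was 2 after median centring, with Eif2s3y as a covariate, without normal lungs 2 and 4 and without the tumours with Eif2s3y signal. Other pathway genes higher ranged from 6 to 10 and lower from 5 to 9 on leaving out 1 array. The number lower was 4 after median centring, without normal lungs 2 and 4 and without the tumours with Eif2s3y signal, and 2 with the covariate, which also gave 5 higher. The cause of these moves was not tested, though settings with fewer arrays have less power by construction. The shares of all genes under the alternatives are not given here. Pairs past the threshold ranged from 15 to 17 on leaving out 1 array and were 12 with unshared probe sets preferred.

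Changes of sign were limited to members and pairs that did not pass with all arrays. They were, after median centring, Pdk2 (0.036) and Pdha1 (0.0048); with array weights, Hk1 (-0.0093) and Pfkp (-0.026); with the covariate, Hk1 (-0.23), Hk3 (-0.35), Pfkfb4 (-0.048) and Fbp1 (-0.47). Without normal lungs 2 and 4, Pfkfb4 was at -0.059. Without the tumours with Eif2s3y signal, Hk1 was at -0.22, Hk3 at -0.62, Pfkfb4 at -0.14, Pdha1 at 0.011 and Fbp1 at -0.59. Without tumours 2 and 6, Hk1 was at -0.18, Pfkp at -0.30, Ldhb at 0.45, Fbp2 at -0.61, Pgd at -0.26, Slc2a1 against Slc2a3 at -1.28 and Fbp1 against Fbp2 at 1.58. With the mean of a gene's probe sets, Hk3 was at -0.052, Hk1 against Hk3 at 0.11 and Slc16a1 against Slc16a3 at -0.12. With unshared probe sets preferred, Hk3 was at -0.42 and Hk1 against Hk3 at 0.50. On leaving out 1 array the ranges were -0.11 to 0.23 for Hk1, -0.084 to 0.29 for Pfkp, -0.13 to 0.26 for Pfkfb4, -0.0027 to 0.17 for Pdk3 and -0.44 to 0.78 for Fbp1. For pairs they were -0.59 to 0.056 for Hk1 against Hk3, -0.40 to 0.88 for Slc2a1 against Slc2a3, -1.97 to 0.34 for Fbp1 against Fbp2 and -0.037 to 0.48 for Pfkm against Pfkp.

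Arrays with the same replicate number did not deviate together (correlations of -0.018 to 0.022). This check was not tried on samples known to be paired, so the correlations alone cannot show whether the numbers pair the samples. For numbers 1, 2, 3 and 5 the tumour had Eif2s3y signal and the normal lung did not. With the replicate number as a block, members were 11 higher and 3 lower, other pathway genes 9 and 5, and pairs 16.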

Other observations

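Several pathway genes outside the members also divided the tumours. Hkdc1, a hexokinase-like gene next to Hk1 with no protein-coding gene between them, gave 76.4 and 178 in tumours 2 and 6 but 469.8 to 1604 in the remaining tumours, beside 94.9 to 226 in normal lungs (1.23 ± 0.54, adjusted p = 0.12). Slc16a7, the lactate transporter of highest affinity, gave 57.2 and 67.3 in the same pair of tumours and 226 to 525 in the others, against 238 to 444 in normal lungs (-0.49 ± 0.47, adjusted p = 0.506). Ppargc1a, a coactivator of mitochondrial genes, was at 26.8 and 67.8 in those tumours and 361 to 503 in the others, against 92.3 to 214 in normal lungs (0.61 ± 0.54, adjusted p = 0.474). None of the 3 passed the threshold over all arrays.

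Pcx, pyruvate carboxylase, was at 2107 in tumour 5 and 401 to 872 in the other tumours, against 490.0 to 697 in normal lungs (0.41 ± 0.29, adjusted p = 0.343). Slc2a2, the transporter GLUT2 of liver and islets, rose (2.30 ± 0.73, adjusted p = 0.0312), yet tumour 2 was at 5.21, within the normal range of 4.76 to 127. Its call was lost without normal lung 1 (2.14, adjusted p = 0.065). These 5 genes were chosen after their values were seen.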
